A study of Mus musculus with 4 samples.

Results

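Broad open chromatin domains of primary chondrocytes were examined that lay away from the ends of genes. A domain was a stretch of at least 1000 bp in which the overlapping ATAC-seq peaks of the 2 libraries at passage 0 (P0) joined, with a peak of both libraries, on chromosomes 1 to 19 or X, and more than 1 kb from both ends of every protein-coding gene. There were 1433 such domains among 99861 P0 sites with a peak of both libraries (1.44%), and among 152356 P0 sites in all. They made up 30.2% of the 4740 sites of both libraries that were at least 1000 bp long. Members were selected on the width and presence of P0 peaks, so P0 values are given as a description only.

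Chondrocytes came from knee cartilage of C57BL/6 mice at postnatal day 0 to 4 and were grown in DMEM/F12 with 10% fetal bovine serum. P0 cells had been in culture for under 24 hours, and P8 cells had been replated after each doubling up to passage 8. Each passage had 2 libraries, called A and B here because the peak names carry no replicate number. The comparison asks how far the broad open domains of primary chondrocytes persist when serial culture takes the cells away from the cartilage phenotype. Both passages share strain, tissue and medium, and differ in passage number and time in culture. The sources used here do not say whether the libraries came from separate cultures or animals, so p-values measure only the spread between libraries.

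In ATAC-seq the transposase Tn5 inserts adapters where DNA is free of nucleosomes, and a peak marks a run of positions with more tags than the local background. Most open sites are short, spanning the gap between neighbouring nucleosomes, whereas promoters with CpG islands and clustered enhancers can give wide peaks. In chondrocytes Sox9, with its partners Sox5 and Sox6, acts largely through enhancers that lie far from the genes they serve, among them the genes of type II and type IX collagen. Culture on plastic is known to reduce expression of these genes and to raise that of fibroblast collagens.

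A peak lay within 1 kb of an end of 18, 17, 11 and 13 of 20 cartilage matrix genes and of 15, 15, 15 and 14 of 15 fibroblast matrix genes. Values for all 4 libraries are given here and throughout in the order P0 A, P0 B, P8 A, P8 B. Over all 21631 protein-coding genes the share with such a peak was 68.6%, 66.8%, 60.6% and 62.1%, so it was lower at P8 in general, and the P8 counts of cartilage matrix genes lie near the share over all genes. The highest peak within 1 kb of an end of Col2a1, the gene of type II collagen, had 93, 90, 34 and 41 tags at its summit. Acan (aggrecan, the main cartilage proteoglycan) had 48, 47, 15 and 13 tags, and Matn1 (matrilin 1) had 44 and 43 tags at P0 and no peak at P8. Sox9 had 52, 47, 30 and 32 tags, Hapln1, the link protein gene, had 68, 58, 31 and 29, and Col9a1 had 57, 54, 10 and 12. For other cell types, a peak at an end was present in the 4 libraries for 3, 3, 2 and 2 of 6 blood and macrophage genes, for 3, 3, 2 and 2 of 5 endothelial genes, and for 3, 2, 1 and 1 of 5 muscle genes. Bone genes had such a peak for 3, 3, 1 and 2 of 5, fat genes for 4, 4, 3 and 4 of 5, and Schwann cell genes for 3, 3, 1 and 3 of 4. These lists hold 4 to 6 genes each and are to be read beside the shares over all genes, which were also lower at P8. The defining markers Ptprc (leukocytes), Pecam1 and Cdh5 (endothelium) and Adipoq (fat) had no peak at an end in any of the 4 libraries. Myod1, the muscle determination factor, had 14, 16, 9 and 8 tags, and Sox10, a neural crest factor of Schwann cells, had 13 and 8 tags at P0 and none at P8. A peak at a gene end is not expression, and any share of other cells in the domains was not tested.

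Sequences are shown for the members that the results turn on most. The domain at chrX:53052378-53054377 (mm10) covers the genes of the microRNAs miR-322, miR-503 and miR-351, and the domain at chr14:115040260-115041685 lies 1986 bp upstream of the miR-17 cluster. Mature forms from both places are given 5′ to 3′ from RefSeq (GRCm38.p6), with the seed, bases 2 to 8, in capitals.
mmu-miR-322-5p: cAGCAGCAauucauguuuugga
mmu-miR-503-5p: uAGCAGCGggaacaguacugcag
mmu-miR-17-5p: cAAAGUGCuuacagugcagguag
mmu-miR-20a-5p: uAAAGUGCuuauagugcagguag
The first pair share the 6 bases AGCAGC of the seed and the second pair share the whole seed AAAGUGC. In all, 8 microRNA genes overlapped a broad domain, in 6 domains. The others were Mir7688, Mir8104, Mir1893, Mir760 and Mir5620.

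Promoter windows (250 bases before to 50 after an annotated start) show the other kind of sequence found at the domains. The first window below belongs to an inner start of Tgfb2, which encodes a growth factor of the growth plate (chr1:186705940-186706239, minus strand), and the second to Stag1, a cohesin subunit (chr9:100643198-100643497, plus strand). The Stag1 window lies wholly inside its domain, and 283 of the 300 bases of the Tgfb2 window lie inside, the first bases printed being outside. Capitals mark the motif TATAAA, which begins 31 bases before the Tgfb2 start.
Tgfb2: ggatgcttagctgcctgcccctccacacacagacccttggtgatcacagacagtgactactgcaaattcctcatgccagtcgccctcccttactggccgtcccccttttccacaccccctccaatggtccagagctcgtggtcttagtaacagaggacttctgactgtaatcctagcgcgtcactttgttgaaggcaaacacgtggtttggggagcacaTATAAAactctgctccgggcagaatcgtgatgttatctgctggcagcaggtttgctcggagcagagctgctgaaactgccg
Stag1: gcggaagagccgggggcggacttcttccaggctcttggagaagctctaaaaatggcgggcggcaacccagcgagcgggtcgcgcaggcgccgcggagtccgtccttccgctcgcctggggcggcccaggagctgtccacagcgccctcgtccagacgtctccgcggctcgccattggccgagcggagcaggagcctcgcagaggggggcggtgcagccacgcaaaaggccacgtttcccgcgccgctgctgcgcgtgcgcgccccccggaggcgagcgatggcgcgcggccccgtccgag
The Stag1 window is 73.7% G and C and the Tgfb2 window 54.3%. Windows lying wholly inside a broad domain, which leaves out that of Tgfb2, numbered 301, from 247 protein-coding genes, and had a median G and C content of 67.7%, against 56.7% over all 21045 protein-coding windows. Searched on both strands, TATAAA was present in 2.66% of the windows inside domains and in 12.7% of all windows. The core of the Sox motif, AACAAT, was present in 1.99% and 8.91%, the Runx core TGTGGT in 11.96% and 14.7%, the AP-1 motif TGANTCA in 5.65% and 7.04%, and the CRE motif TGACGTCA in 1.99% and 2.26%. These motifs do not contain each other, although neighbouring matches can share bases. The windows inside domains were richer in G and C, and the part of base composition in these shares was not tested. A match in a window is a description and no site of binding was measured.

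Domain length ran from 1000 to 4539 bp, with a median of 1135 bp and an upper quartile of 1274 bp. Of the 1433 domains, 575 (40.1%) were shorter than 1100 bp, 116 reached 1500 bp and 8 reached 2000 bp. Together they spanned 1719 kb. Under the same rule without P0 library A, the peaks of P0 library B alone gave 634 domains, and those of P0 library A alone gave 1126. Sites on both sides of the length threshold were alike in the values given. The 334 domains less than 50 bp above it had median summits of 44, 37, 22 and 25 tags, and the 362 sites that missed it by 50 bp or less had 46, 40, 21.5 and 25 tags. Around the distance threshold, 57 domains lay no more than 250 bp beyond it, with median summits of 54, 49, 29 and 32 tags, and 49 broad sites were too near by less than 250 bp, with 55, 49, 29 and 32 tags.

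Wide peaks were more numerous at P0 than at P8 when all peaks of each library were counted under the same length and distance cuts. The P0 counts use the widths that also set the domains, so the counts and ratios are a description only. Peaks of at least 1000 bp away from gene ends numbered 1126, 634, 177 and 236. The groups did not overlap, with 880 ± 348 at P0 and 206.5 ± 41.7 at P8 (SD, n = 2 each), a ratio of 4.26 ± 1.89 (SD). The exact two-sided permutation test over the 4 libraries gave p = 0.33, which is the smallest value that 2 libraries against 2 can give. No conclusion is drawn from this test. As a share of all peaks of the library, the values were 0.780% and 0.534% at P0 against 0.200% and 0.239% at P8, a ratio of 2.99 (exact permutation test, two-sided, p = 0.33). The depth moved in the same direction. The lowest local background was 194 and 162 tags per 10 kb at P0 and 140 and 134 at P8, and the peaks called on these chromosomes numbered 144272 and 118785 against 88413 and 98548. Depth and passage cannot be told apart in these libraries.

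**Figure D1:**
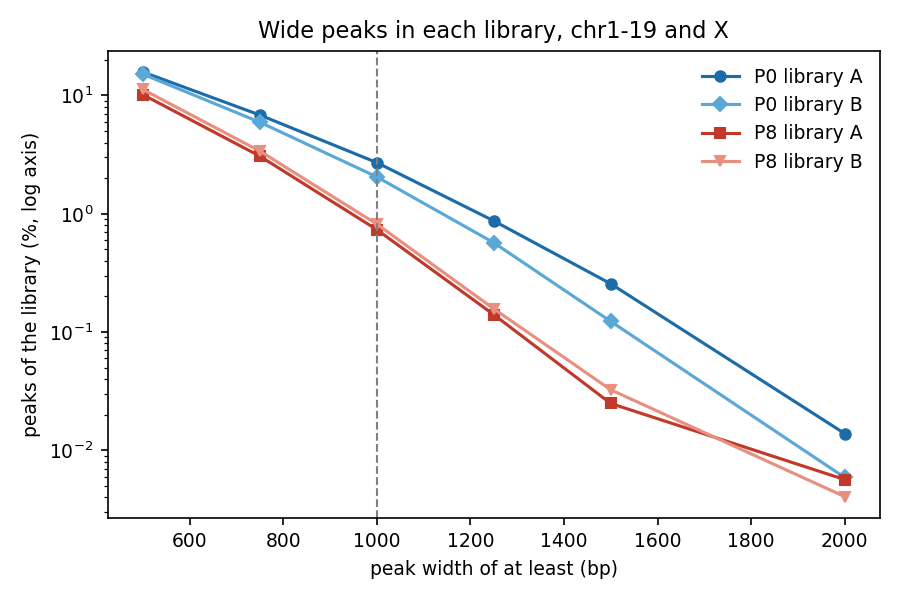
Share of the peaks of each library (%, log axis) whose width is at least the value on the horizontal axis (bp), for the 2 P0 and 2 P8 libraries, with a dashed line at 1000 bp. At 1000 bp the P0 libraries stood at 2.71% and 2.05% and lay above both P8 libraries.

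At P8 nearly all domains still held a peak. Both P8 libraries had a peak in 1392 of the 1433 domains (97.1%, 95% Wilson interval 96.1 to 97.9), whereas 55.7% of all P0 sites of both libraries had one. Most of those sites are shorter, and of the 3307 broad P0 sites within 1 kb of a gene end 99.3% had one, so the high share is not particular to domains away from gene ends. Neither P8 library had a peak in 11 domains (0.768%, 0.429 to 1.37), against 29.2% of all P0 sites and 0.212% of the broad sites near a gene end, and 30 domains had a peak of 1 P8 library. Read in 1 P8 library at a time, the share without a peak was 2.44% without P8 library B and 1.19% without P8 library A, and it was 0.315% of the domains made without P0 library A. Keeping only peaks with q above the median of all peaks gave 1356 domains. Of these, 5.83% had no P8 peak and 86.7% had a peak of both P8 libraries. The intervals cover counting error only, and domains are not replicates.

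Each domain is the joined length of its P0 peaks, so the rule sets the P0 coverage close to the whole length and P8 coverage can hardly exceed it. The values of both passages are therefore a description. The median length covered by peaks was 1108, 1023, 779 and 847 bp. As a share of the domain this was 99.3%, 90.3%, 66.7% and 72.8%. Both P8 libraries covered less than both P0 libraries in 1194 domains (83.3%), which is to be read beside 75.6% of all P0 sites. Both covered more in 5 domains (0.349%), against 0.908% of all P0 sites. Both P8 libraries covered 1000 bp or more in 218 domains (15.2%), against 0.935% of all P0 sites, most of which are shorter than that, and 21.7% of the broad P0 sites within 1 kb of a gene end. The mean P8 length was at least 90% of the mean P0 length in 225 domains (15.7%), against 14.3% of all P0 sites. It was below 50% in 230 domains (16.1%) and below 25% in 80 (5.58%), against 51.3% and 36.7% of all P0 sites.

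**Figure D2:**
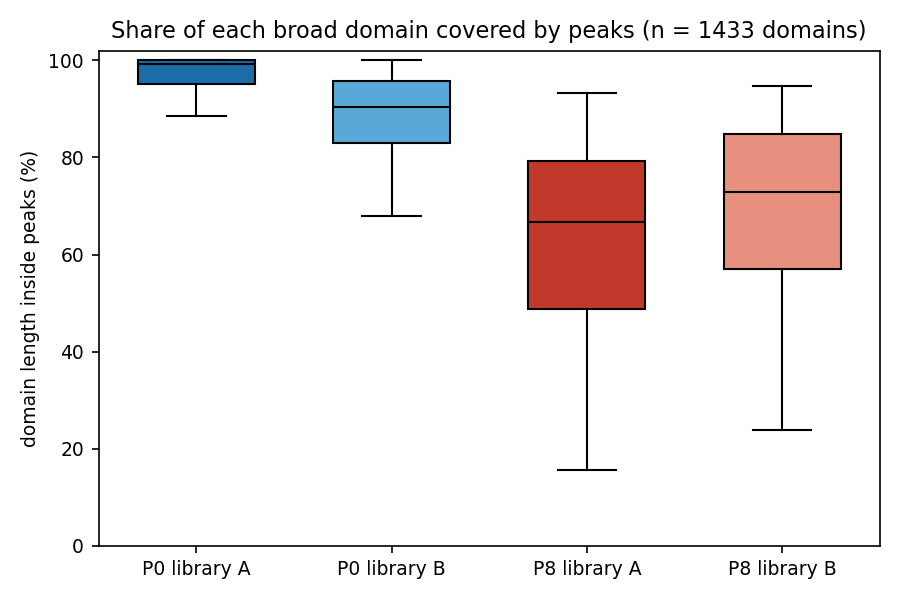
Share of each of the 1433 domains that lies inside peaks (%), by library; boxes span the quartiles, the line is the median and the whiskers run from the 5th to the 95th percentile of domains. Medians were 99.3% and 90.3% at P0 and 66.7% and 72.8% at P8.

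Width and number of the peaks inside the domains are given as a description, since the rule chose wide peaks at P0. The longest peak had a median width of 1087 and 964 bp at P0 and of 569 and 636 bp at P8. A single peak lay in 1224 and 860 domains at P0, and in 536 and 578 at P8. Domains with 3 or more peaks numbered 19 and 115 at P0 and 259 and 277 at P8. Counted around the centre of each domain, peaks were present at the centre itself in 98.8% and 95.3% of domains at P0 and in 76.6% and 78.2% at P8. Averaged over the positions 450 bp on each side, the shares were 96.8% and 84.1% against 51.3% and 59.6%. Because the rule selects for P0 peaks out to about 500 bp from the centre, the drop towards the flanks is not compared between the passages.

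**Figure D3:**
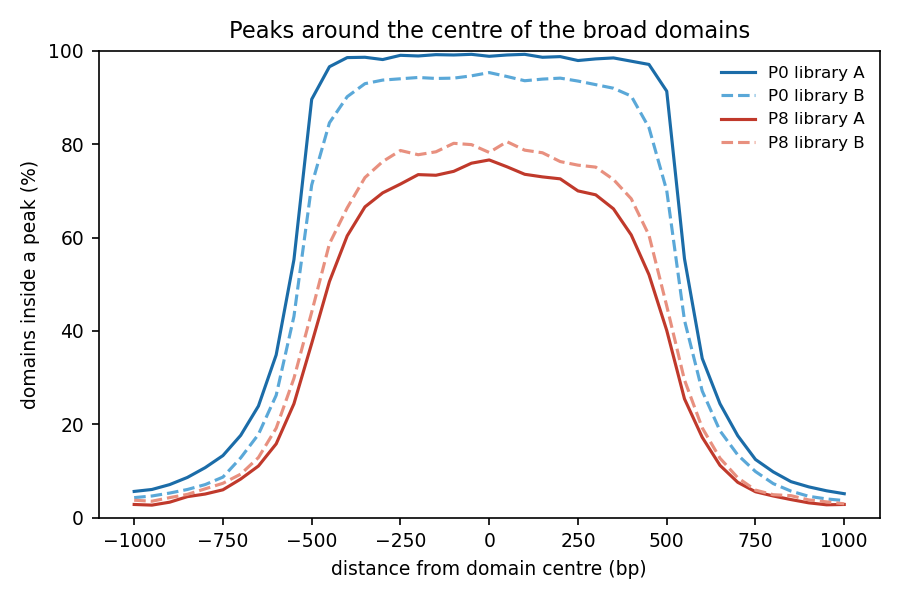
Share of the 1433 domains inside a peak (%) at each distance from the domain centre (bp), for the 4 libraries. The P0 libraries form a plateau out to about the edge that the rule sets. The P8 libraries stand at 76.6% and 78.2% at the centre, and average 51.3% and 59.6% over the positions 450 bp on each side.

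Summit heights are given in the same way, since tall peaks tend to be wide. The median summit had 51 and 44 tags at P0 and 26 and 29 tags at P8, and 1328 domains (92.7%) had fewer tags in both P8 libraries than in both P0 libraries, as did 80% of all P0 sites. The fold enrichment over the local background, which takes the background of each library into account, had medians of 8.67 and 9.19 at P0 and of 7.70 and 7.95 at P8. Thus the tags at the summits stood further apart between the passages than the enrichment did.

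A library that took no part in the choice shows how far values drop on a second reading. The 1126 wide peaks of P0 library A alone were covered over a median of 90.4% in the other P0 library and of 70.4% and 76.0% at P8. The 634 wide peaks of P0 library B alone were covered over 99.2% in the other P0 library and over 78.4% and 82.9% at P8. The longest peak in the 1126 had a median width of 987 bp in the other P0 library and of 612.5 and 683 bp at P8, and in the 634 of 1155 bp against 719.5 and 791 bp. With either choice the other P0 library stood above both P8 libraries. In the reverse direction, the 177 wide peaks of P8 library A were covered over 100% and 98.7% at P0 and 95.4% in the other P8 library, and the 236 of P8 library B over 100% and 97.2% at P0 and 91.3% in the other P8 library.

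The same rule applied to the P8 libraries gave 411 domains, 0.624% of 65898 P8 sites of both libraries. A P0 domain was overlapped by 342 of them, which is 83.2% of the P8 domains and 23.9% of the P0 domains. Of the other 69, 4 overlapped a broad P0 site nearer to a gene end. Peaks of both P0 libraries lay in 407 of the 411, and a single P8 domain had no P0 peak at all, at chr7:101977990-101979190 near Numa1, a spindle protein gene. It was covered over 945 and 1008 bp at P8, with 16 and 19 tags.

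Summit height at P0 went with coverage at P8 in broad and narrower sites. Among domains whose lower P0 summit had 40 to 59 tags, the median share covered by P8 peaks was 69.7% and 75.4%, and among sites of 500 bp to under 1 kb in that range it was 69.0% and 74.7%. With a lower P0 summit of 10 to 19 tags, the shares were 30.1% and 39.5% for the domains and 25.5% and 36.6% for the narrower sites. Over the 5 ranges of summit height this was where the medians lay furthest apart, by 4.62 percentage points in P8 library A. A peak of both P8 libraries was more frequent in the domains in each of the 5 ranges. The shares were 77.2% (57 domains) against 61.7% at 10 to 19 tags and 92.2% against 82.0% at 20 to 29 tags. At 40 to 59 tags they were 99.7% against 98.4%. A longer site has more room to meet a P8 peak. Among broad sites within 1 kb of a gene end the shares were 69.2% (39 sites), 96.5% and 100% in these ranges. From 20 tags upward a high share was thus not particular to domains away from gene ends.

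**Figure D4:**
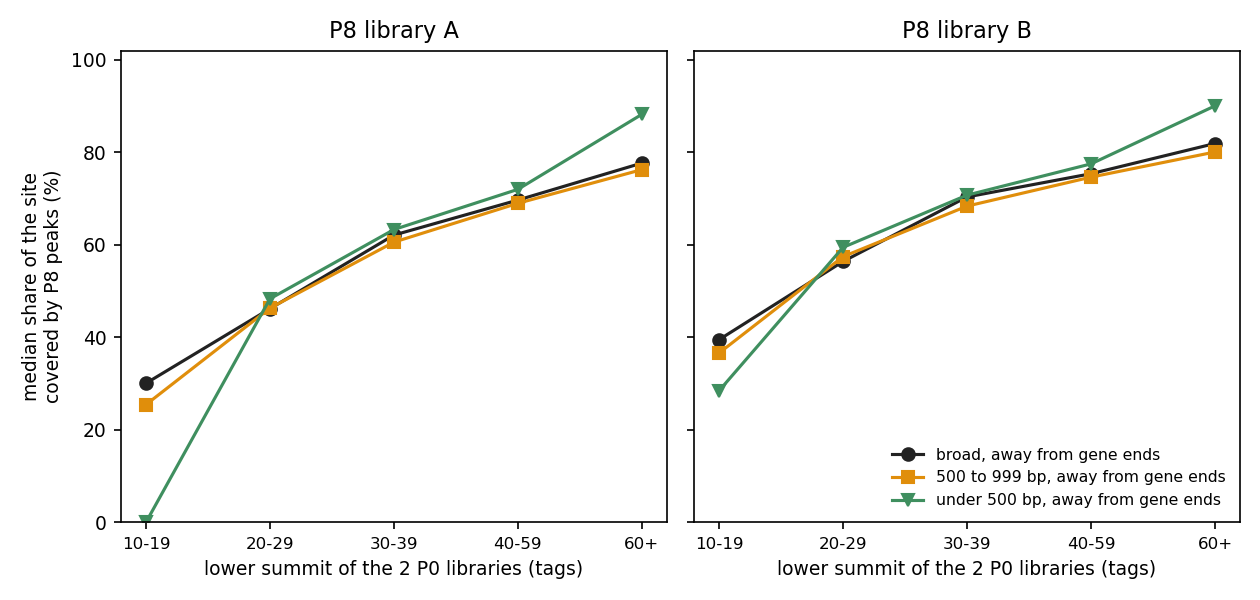
Median share of a site covered by P8 peaks (%) against the lower of its 2 P0 summits (tags, in ranges), for P8 library A (left) and P8 library B (right); lines stand for broad domains and 2 classes of narrower sites, all away from gene ends. The shares rise with the summit, and broad domains and sites of 500 bp to under 1 kb stand at 69.7% and 69.0% at 40 to 59 tags in library A and at 30.1% and 25.5% at 10 to 19 tags.

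The domains lay more often inside genes than narrower sites did. A protein-coding gene enclosed 896 of them (62.5%), against 54.3% of the sites of 500 bp to under 1 kb and 53.5% of those under 500 bp. The median distance to the nearest protein-coding gene end was 18106 bp, against 27184 and 26489 bp in these narrower classes. The distance was over 10 kb for 63.2% of the domains, against 74.0% and 73.2%, and over 100 kb for 186 domains. Although the rule kept domains away from the outer ends of genes, 301 (21.0%) held the start of a protein-coding transcript, an inner promoter, compared with 4.88% and 0.646% of the narrower classes. The end of a non-coding gene or pseudogene lay within 1 kb of 284 domains (19.8%), against 9.77% and 6.49%. Neither was present for 901 domains (62.9%). These shares were not tested, since sites are not replicates.

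Coverage at P8 was lowest in domains with neither. The 301 with an inner promoter were covered over a median of 71.9% and 76.2% by P8 peaks, the 231 with only a non-coding end over 72.2% and 78.0%, and the 901 with neither over 63.0% and 70.1%. Median P0 summits were also lowest in the last class, with 57 and 51, 53 and 47, and 48 and 41 tags. Among domains whose lower P0 summit had 30 to under 45 tags the classes lay closer, at 65.3% and 71.3%, 68.9% and 73.1%, and 61.9% and 70.7%. From 45 to under 60 tags the shares were 75.5% and 77.7%, 74.9% and 79.7%, and 67.1% and 73.7%. All 301 domains with an inner promoter had a peak of at least 1 P8 library, and the 11 without any P8 peak were 3 at a non-coding end and 8 with neither. The 39 domains on chromosome X were covered over 53.2% and 63.6% in the P8 libraries, with median P0 summits of 42 and 40 tags.

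Near genes of small structural RNAs, the median coverage at P8 was closer to that at P0, although not at each such gene. A tRNA gene end lay within 1 kb of 29 domains, and 60 of the 408 tRNA genes (14.7%) had a domain that near. The median ratio of P8 to P0 covered length in these 29 domains was 0.856, and it was 0.907 in the 23 domains near a gene of a small nuclear RNA, beside 0.755 over all domains and 0.771 in the 212 near a long non-coding RNA gene. P0 summits were higher there too, with medians of 55 and 48 tags near tRNA genes and 66 and 58 near small nuclear RNA genes, against 50 and 43 in the 1374 domains without a small structural RNA gene, and the part of summit height in the ratio was not tested. Tex14, a gene of germ cell bridges, held more domains than any other protein-coding gene, 5 within 49.5 kb, and each was at a gene of U3 RNA (Rnu3b1 to Rnu3b4) or U1 RNA (Rnu1a1). The longest of the 5, at chr11:87448236-87449752 at Rnu3b3, was covered over 1511, 1281, 1268 and 1391 bp, with 71, 66, 69 and 69 tags. The passages overlapped in both measures. The ratios of the 5 ran from 0.943 to 1.01. Domains at other U1 genes stood below the ratio over all domains, with 0.647 at Rnu1b2 (chr3:96373797-96374836; 1040, 608, 360 and 707 bp) and 0.486 at Rnu1b6 (chr3:96458929-96460578), where coverage was 1519, 1264, 584 and 769 bp. Domains at genes of this kind thus differed among themselves. Such genes have near-identical copies, and how reads that match several places were treated is not given in the sources used here, so these values are uncertain.

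The 3 longest domains were also those with the most length covered at P8, and all 3 lay between protein-coding genes. The domain at chr1:24611590-24616128 holds the pseudogenes Gm10222 and Gm10925 and was covered over 4536, 4538, 4531 and 4534 bp, with 146, 146, 144 and 143 tags. The highest summit of any peak was 146 tags in each P0 library and 144 in each P8 library, so this domain stood at the top of the scale. At chr17:39843069-39847329 lies a copy of the 18S ribosomal RNA gene (Rn18s-rs5), covered over 4256, 4178, 4112 and 4176 bp, with 116, 111, 111 and 104 tags. The third, at chr14:19415700-19419495, lay 114205 bp from the nearest gene, Gm2244, and was covered over 3777, 3796, 3250 and 3069 bp, with 140, 138, 120 and 121 tags, again near the top of the scale. Pseudogenes and ribosomal RNA genes have near-identical copies elsewhere, so values at the first pair are uncertain in the same way. Whether the third has copies elsewhere was not tested. Fold enrichment was low in all 3, with 2.19, 2.18, 2.32 and 2.32 at the first. At the second it was 2.01, 2.00, 2.09 and 2.07, and at the third 4.04, 3.96, 4.70 and 4.88. The medians over all domains were 8.67, 9.19, 7.70 and 7.95. Near the top of the scale, a difference in tags between libraries can be understated, as at the first and the third.

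Of the other 7 among the 10 longest domains, 6 lay inside protein-coding genes. The domain in Ywhaz, the gene of a 14-3-3 adaptor protein, was covered over 2253, 1705, 1581 and 1411 bp. In Cpeb2, a regulator of translation, coverage was 2317, 1944, 1951 and 1963 bp. At the inner promoter of Stag1 it was 2063, 1968, 1146 and 1755 bp, and at that of N4bp2 2034, 1789, 1540 and 1539 bp. The P8 values lay below both P0 values in Ywhaz, Stag1 and N4bp2 and between them in Cpeb2. Domains at inner promoters of Fbxl17, an F-box protein gene, and App, the amyloid precursor protein gene, were covered over 1349 and 1367 bp and over 990 and 989 bp at P8, against 1982 and 1955 bp and 1872 and 1553 bp at P0.

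The microRNA domain on chromosome X was the one of the 10 longest with the least length covered at P8. It spans 2000 bp across an end of the long non-coding RNA gene C430049B03Rik and includes the genes of miR-351, miR-322 and miR-503, the last pair with sequences given above, and these microRNAs are known as brakes on the cell cycle in several cell types. Coverage was 2000 bp in P0 library A, 1871 bp in P0 library B, 174 bp in P8 library A and 292 bp in P8 library B, with 65, 61, 10 and 18 tags at the summit. Mean P8 coverage was 0.120 of that at P0, with no overlap between the passages. Hairpins of the same cluster, Mir542, Mir450-1, Mir450-2 and Mir450b, lay 2891 to 4300 bp from the domain.

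Further domains near non-coding RNA genes took both courses. The domain at chr7:142574602-142575829 overlapped H19, an imprinted RNA gene that is the host of miR-675. This domain was covered over 1228, 1039, 360 and 578 bp, with 64, 65, 14 and 15 tags. The domain upstream of the miR-17 cluster was covered over 1399, 1186, 864 and 595 bp, with 70, 58, 29 and 30 tags. Both had less coverage in each P8 library than in each P0 library. At Malat1, an abundant nuclear RNA, the domain at chr19:5793690-5795556 was covered over 1839, 1695, 1823 and 1736 bp, with 70, 60, 54 and 57 tags, and the coverage of the passages overlapped.

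Each domain was assigned to the nearest protein-coding gene, which gives its position and not its target. The nearest genes numbered 1264, 5.84% of the 21631 protein-coding genes, of which 135 were nearest to 2 or more domains and 24 to 3 or more. Genes that held a domain were long, with a median of 88.0 kb against 17.3 kb over all protein-coding genes. The rule favours long genes, since a domain had to lie more than 1 kb from both ends. Lengths of genes that held narrower sites were not compared, so no trait particular to the domains is read from this. After Tex14, the genes with most domains were Chd9 (a chromatin remodeller), Tenm3 (a teneurin adhesion receptor), Auts2 and Gse1 (chromatin regulators), with 4 each. Tenm3 and Auts2 span 1297 and 1106 kb. Within Auts2 the longest domain was covered over 1816, 1703, 1718 and 1645 bp, and another, at chr5:131662010-131663070, over 1061 and 578 bp at P0 and by no peak at P8. Domains of the same gene thus differed. Another domain lay within 50 kb for 204 domains (14.2%), and 14 runs held 3 or more in this way.

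Of 20 cartilage matrix genes, 4 (20%) were nearest to a domain, beside 5.84% of all protein-coding genes. Their 4 domains had a median P8 to P0 ratio of covered length of 0.696, beside 0.755 over all domains. In 3 of the 4, both P8 libraries covered less than both P0 libraries, as in 83.3% of all domains. The domain in Snorc (chr1:87471232-87473059), which encodes a membrane proteoglycan of cartilage, was covered over 1521 and 1772 bp at P0, by no peak in P8 library A and over 208 bp in P8 library B. Its summits had 50, 44, 0 and 12 tags. The domain in Col9a1 (chr1:24195250-24197031), a chain of type IX collagen, was covered over 1763, 1685, 1352 and 1267 bp, with 83, 75, 24 and 27 tags. Thus both stood lower at P8 in length and in tags, which are not scaled for depth, Col9a1 more in tags. The fold enrichment of the Col9a1 domain was 6.29, 6.62, 6.98 and 6.85, and was not lower at P8. In Col9a2, a second chain, coverage was 1020, 867, 599 and 595 bp. The domain 11113 bp from Prelp, a leucine-rich matrix protein also made by fibroblasts, was covered over 1154, 1114, 1142 and 1152 bp, and the passages overlapped.

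**Figure D5:**
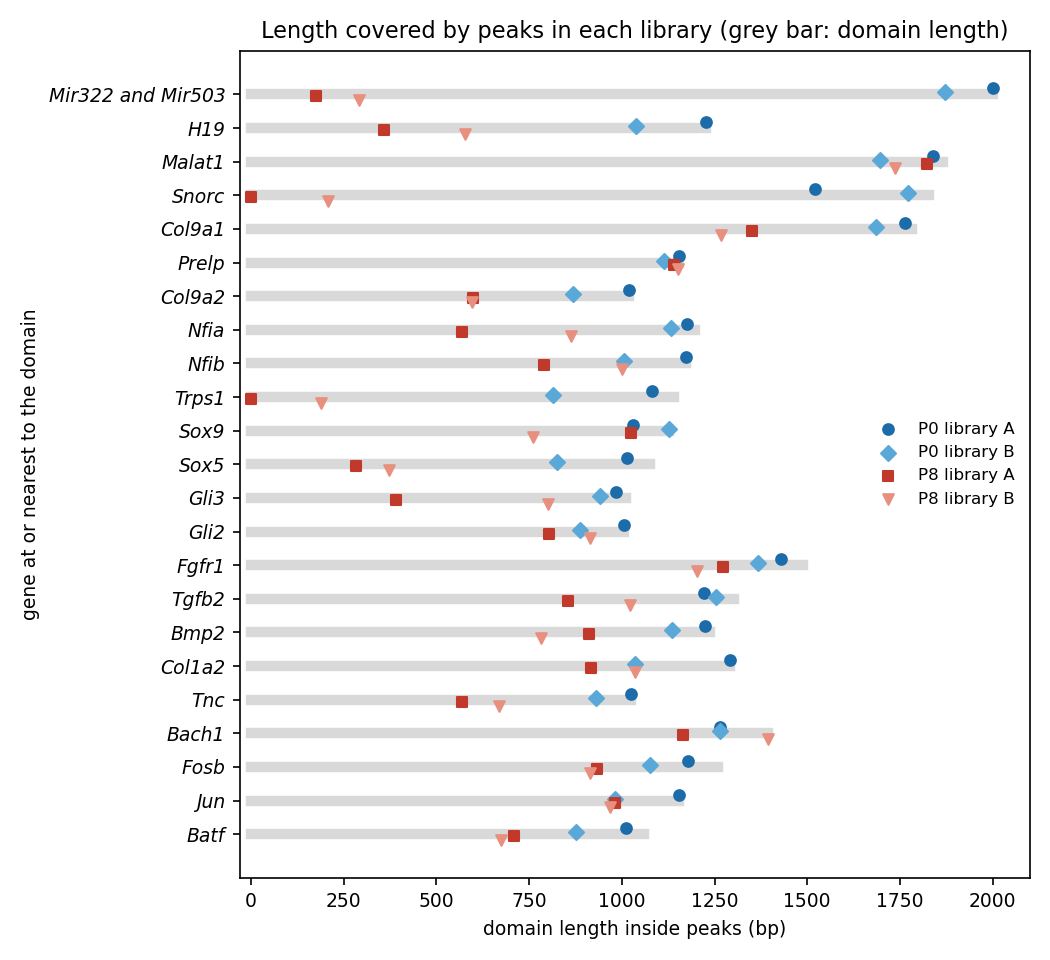
Length inside peaks (bp) of the longest domain of each named gene, in the 4 libraries, with the domain length as a grey bar; the first 3 rows are domains at RNA genes, and the others are at or nearest to the gene given. The P8 points of Mir322 and Mir503, Snorc and Trps1 lie far to the left of the P0 points, whereas those of Malat1 and Prelp lie among them.

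Of 15 chondrocyte transcription factors, 7 (46.7%) were nearest to a domain, beside 5.84% of all protein-coding genes. Their 12 domains had a median ratio of 0.737 beside 0.755 over all domains. Both P8 libraries covered less in 11 of the 12, where 83.3% of all domains did. These 15 genes are long, with a median of 220 kb. Sox9, the master regulator of chondrocytes, had its domain 160147 bp away, at chr11:112620937-112622063, covered over 1029, 1127, 1024 and 760 bp, with 46, 32, 28 and 27 tags. The domain in its partner Sox5, at chr6:144056469-144057545, was covered over 1014, 825, 283 and 373 bp, with 52, 41, 22 and 24 tags. Trps1, a repressor that acts in growth plate chondrocytes, was nearest to 3 domains, of which the longest, 551583 bp away at chr15:50102033-50103174, was covered over 1082 and 814 bp at P0, by no peak in P8 library A and over 189 bp in P8 library B. The other 2 of Trps1 were covered over 535 and 609 bp and over 868 and 866 bp at P8, so the domains around this gene differed among themselves. Nfia, a nuclear factor I protein, was nearest to 3 domains, the longest covered over 1175, 1132, 569 and 863 bp. Nfib had 2 domains, and Gli2 and Gli3, the transcription factors of hedgehog signalling, had 1 each.

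Growth plate signalling genes had domains for 3 of 20 (15%), beside 5.84% of all protein-coding genes. Their 5 domains had a median ratio of 0.717 beside 0.755 over all domains. Both P8 libraries covered less in all 5, where 83.3% of all domains did. The domain in Fgfr1, a fibroblast growth factor receptor, was covered over 1430, 1366, 1272 and 1202 bp. Bmp2, a bone morphogenetic protein gene, had a domain 204755 bp away that was covered over 1225, 1134, 911 and 781 bp. The Tgfb2 domain with the promoter printed above was covered over 1057, 925, 609 and 697 bp, with 45, 45, 25 and 29 tags, and its inner start lay inside a peak in 3 libraries but not in P8 library A. The second Tgfb2 domain, 208307 bp away, was covered over 1222, 1253, 854 and 1023 bp.

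Genes of the dedifferentiated state were represented too. Of 15 fibroblast matrix genes, 2 (13.3%) had a domain, beside 5.84% of all protein-coding genes. The median ratio was 0.736 beside 0.755 over all domains, with lower coverage in both P8 libraries for 1 of the 2 domains. That of Col1a2, a chain of type I collagen, lay 47606 bp away and was covered over 1292, 1035, 918 and 1035 bp, and that of Tnc (tenascin C), 249366 bp away, over 1024, 930, 568 and 669 bp. The passages touched at Col1a2 and were apart at Tnc. Of 12 AP-1 family genes, 4 (33.3%) had a domain, beside the same 5.84%. Their 5 domains had a median ratio of 0.819 and lower coverage in both P8 libraries for 2, beside 0.755 and 83.3% over all domains. Bach1, a repressor related to AP-1, had 1265, 1265, 1166 and 1394 bp covered, and the passages overlapped. In Fosb the values were 1179, 1077, 934 and 913 bp, and at the longer of the 2 domains of Jun, 53161 bp away, 1153, 981, 981 and 968 bp. The domain in Batf was covered over 1011, 877, 710 and 673 bp. Among 12 actin and YAP/TEAD target genes, 3 (25%) had a domain, beside 5.84% of all protein-coding genes, with 5 domains and a median ratio of 0.812. Both P8 libraries covered less in 3 of the 5, where 83.3% of all domains did. The domains nearest to Amotl2, an inhibitor of YAP, numbered 3, and the longest was covered over 1141, 964, 1025 and 955 bp. The domain inside the gene, at chr9:102723403-102724457, was covered over 1043, 911, 444 and 443 bp, and the third over 1032, 649, 856 and 888 bp. The passages were apart at the domain inside the gene and overlapped at the other 2. The Ccn1 domain was covered over 1174, 972, 555 and 874 bp, and the Tead1 domain over 1169, 1200, 952 and 972 bp. At each of these, both P8 libraries covered less than both P0 libraries. None of 11 matrix proteases and their inhibitors was nearest to a domain.

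Of the lists for other cell types, blood, muscle and Schwann cell genes had no domain, whereas endothelial, bone and fat genes had 1 each (Cdh5, Dmp1 and Pparg). The Cdh5 domain lay 39307 bp from a gene without a peak at its ends, and was covered over 1022, 1094, 329 and 296 bp. Among 10 housekeeping genes only Ywhaz had one. Lists of 4 to 20 genes are small, and 6.23% of the 14308 genes with a peak at an end in both P0 libraries were nearest to a domain.

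The domains without any P8 peak had P0 summits below the median of all domains. The 3 longest of these 11 lay in Mpped2 (chr2:106730126-106731368), 55472 bp from Socs5 (chr17:87193119-87194351) and in Mras (chr9:99400877-99402040). Mpped2 is a metallophosphoesterase gene, Socs5 a suppressor of cytokine signalling and Mras a Ras-related GTPase. They were covered over 1225 and 1126 bp, 1221 and 1194 bp, and 1162 and 899 bp at P0, with 26 and 17, 31 and 30, and 29 and 32 tags. The 5 domains covered more in both P8 libraries were nearest to Anapc13, Eef1g, Mepe, Tcte2 and Tmem125, and were chosen after their values were seen. The domain at Tmem125 had 76 and 77 tags at P0 and 103 and 101 at P8, and that at Mepe, a matrix protein of bone cells, had 41, 38, 32 and 36.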

How the data were processed

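Per the submitters' notes and methods, paired-end reads were aligned with Bowtie2 to mm10 and peaks were called with MACS2 in each library at default settings; versions are not given in the sources used here. For each peak the authors deposited a pileup in tags at the summit (signal, not scaled for depth), a fold enrichment over the local background, and −log10 p and q values within the library. A further table holds the authors' own log2 fold changes, p-values and FDR between passages and was not used.

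Peaks overlapping by at least 1 bp were merged. Distances were taken to both ends of 21631 protein-coding genes (RefSeq, GRCm38.p6, no strand). Depth is read from the local background, whose steps imply tags extended to 73 bp in 10 kb windows. Named domains are the 10 longest, the 3 longest without a P8 peak, the 3 with most length covered at P8, those of the 5 genes with most domains and those of the gene lists; domains at RNA genes were added after values were seen. Members and lists were chosen with earlier results of these data known. On simulated sites, merging, distances and overlaps came out right in 100% of cases. No column per library was left unused (0). Python 3.11.15, numpy 2.4.6, pandas 2.3.3 and scipy 1.17.1 were used.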

Additional observations from a re-analysis of the deposited data

How the results depend on the processing

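With a minimum length of 750 bp the rule gave 4720 P0 and 1693 P8 domains, of the P0 domains 2.71% had no P8 peak, 93.0% had a peak of both P8 libraries and 57.4% lay inside a gene. With 1500 bp it gave 116 and 25 domains, and 0% and 98.3% for the first pair of shares. Joining peaks up to 100 bp apart gave 2153 and 782 domains, with 1.86% and 95.4%, and a mean P8 median coverage of 62.8%, against 69.8% as reported. Peaks with q above the median left 5.83% without a P8 peak and 86.7% with both, and a coverage of 62.4%. The share inside a gene was 58.5% beyond 3 kb from gene ends and 68.1% with genes of every biotype. Counting only P8 peaks with 50% of their length inside gave 33.9% of narrower sites without a P8 peak, against 33.3%. In 2 checks added after seeing the data, the 901 domains with no annotated start or end had both P8 peaks in 96.1%, and leaving out the 3 longest domains kept every share within its interval.

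Leaving out 1 library at a time, the domains numbered 634 without P0 library A and 1126 without P0 library B. The share without a P8 peak ran from 0.315% to 2.44%, that with a peak of every P8 library from 97.6% to 99.2%, the coverage from 66.7% to 80.7% and the share of narrower sites without a P8 peak from 37.6% to 45.4%. The ratio of wide peaks between passages ran from 3.07 to 5.45 with 1 library left out, and was 3.23 at 750 bp and 4.64 at 1500 bp, always above 1. In all, 47 of 76 alternatives stayed within 1.5 times a count, the interval of a share or the SD of the coverage, or kept the ratio's direction, and 29 did not. No paired analysis was possible because the peak names do not carry the replicate numbers of the labels.

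With 2 libraries per passage the exact permutation test has a smallest p of 0.33. Depth was lower in both P8 libraries, so an absent P8 peak says only that none was called at this depth, and the part of depth in the smaller P8 coverage was not tested. Domains at RNA genes and pseudogenes with near-identical copies have uncertain values.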

Other observations

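The P8 domains with least open chromatin at P0 were, after that near Numa1, those nearest to Ubb, Nr4a1, Adarb2 and Stam2, and they were chosen after their values were seen. Ubb encodes a polyubiquitin, and its domain at chr11:62555120-62556354 was covered over 82 and 0 bp at P0 and over 1235 and 759 bp at P8, with 21, 0, 27 and 28 tags. Nr4a1 is an immediate early nuclear receptor gene, and its domain at chr15:101276095-101277198 was covered over 78 and 0 bp at P0 and over 777 and 850 bp at P8, with 17, 0, 26 and 34 tags. At Adarb2 the values were 352, 0, 873 and 901 bp, and at Stam2 637, 126, 1597 and 1601 bp. In all 4 the P8 libraries covered more than the P0 libraries.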
